A study of Mus musculus with 32 samples.

Results

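Loss of Percc1 in the large bowel of the newborn mouse was described by 6 RNA libraries, 3 percc1-/- and 3 wild type, out of 32 libraries of dissected digestive tract. They were chosen by their labels alone and formed 3 pairs of the same region and stage: colon at postnatal day 5 (P5), rectum at P5, and colon together with rectum at P1. Per the labels' protocols, 1512 bp of chromosome 17 were replaced by a loxP site in W4/129S6 embryonic stem cells, the neomycin cassette was taken out with Cre, and the line was kept by sibling breeding on a mixed 129SvEv and C57BL/6 background. Both genotypes are given this mixed background, but whether they carry the same strain's alleles at a given gene is not known. The deletion is carried in the germ line and is not limited to a tissue. Total RNA depleted of ribosomal RNA was sequenced from pieces emptied of their contents, so that epithelium, muscle, nerve and blood cells of the wall are measured together. A symbol and a valid value in all 6 libraries were present for 21862 genes, and in all 32 libraries for 21203. The labels name no animals, so it is not known whether colon and rectum at P5 came from the same mice, and the spread between pairs, on which the p-values rest, may in part be technical.

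Enteroendocrine cells are scattered, hormone-secreting cells of the gut epithelium. They arise from crypt progenitors through the transcription factor Neurog3 and store their peptides in dense granules. In the large bowel the main type is the L cell, which makes proglucagon (Gcg, the precursor of GLP-1 and GLP-2), peptide YY (Pyy) and, in its distal form, insulin-like peptide 5 (Insl5). Enterochromaffin cells, which make serotonin through the enzyme Tph1, and somatostatin (Sst) cells make up most of the remainder. Percc1 is a gene whose loss in mice and humans is known for severe early diarrhoea with a lack of enteroendocrine cells. In bulk tissue, fewer cells of a type and less RNA per cell cannot be told apart.

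Values are FPKM, fragment numbers scaled to transcript length and to library size, as the authors deposited them. The labelled regions were visible in the data: Hoxb13, a homeobox gene of the hindmost gut, stood at 32.6 and 28.7 FPKM in the percc1-/- and wild-type rectum, at 2.89 and 0.912 FPKM in the colon and at 10.97 and 3.73 FPKM at P1. It was thus higher in percc1-/- tissue in 3 of 3 pairs (limma adjusted p = 0.417), and whether the paired pieces match in position was not tested. The summed level of the large bowel epithelium markers was 307 to 440 FPKM in percc1-/- and 310 to 378 FPKM in wild-type libraries. One library stood apart. The percc1-/- library of colon at P5 held 99.6 FPKM in sum over 14 stomach epithelium markers, against 10.7 in its wild-type partner, 1.30 to 5.08 in the other large bowel libraries, 5.70 to 271.9 in the 14 small intestine libraries and 131.8 to 1064 in the 10 stomach libraries. All 9 of those markers that were tested lay more than 1 log2 unit higher in that pair, and 0 of the 9 did so in the other pairs. This count is partly set by the filter, since a gene was tested at a mean of 1 FPKM or more over the 6 libraries. Pgc, a pepsinogen, at 13.7 against 0.339 FPKM, reached that mean through this library alone, with 0.183 to 0.339 FPKM elsewhere in the large bowel. The calls and most list medians that follow are given without the colon P5 pair as well.

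Across the pairs, 6 of 13301 tested genes passed an adjusted p of 0.05 (0.0451 percent; limma on log2(rescaled FPKM + 1), with the pair as a block, Benjamini-Hochberg over all genes). The 3 lower genes (0.0226 percent) were all gut hormones: Pyy, Gcg and pancreatic polypeptide (Ppy). The 3 higher genes (0.0226 percent) were Retnlb, Mmp7 and Reg3g, which encode secreted products of the epithelium with known roles in defence against bacteria. At an unadjusted p of 0.05, 1320 genes (9.92 percent) passed, 636 higher (4.78 percent) and 684 lower (5.14 percent). With 2 pairs, 0 genes passed without the colon P5 pair or without the P1 pair, where the adjusted p-values of the 6 genes lay at 0.532 to 0.600 and 0.273 to 0.569, and 28 passed without the rectum pair, all 6 among them. A second fit over all 15 postnatal pairs estimates the spread from more pairs. It adds 7 pairs of small intestine and 5 of stomach taken at P1, P5, P10, P15 and P20, whereas large bowel was taken at P1 and P5 alone. It called 10 of 12902 genes in the large bowel (0.0775 percent), 4 lower (0.031 percent) and 6 higher (0.0465 percent). Its lower genes were Ppy, Gcg, Insl5 and Apobec2, and 2 of the 10, Gcg and Ppy, were also among the 6 above. With the P1 and P5 pairs alone it called 2 genes, of which Ppy was 1 of the 10, and the adjusted p-values of the other 9 lay between 0.0587 and 0.209. Some of its calls are near 0 in the added regions. Wild-type medians in small intestine and stomach were 0.305 and 0.5805 FPKM for Ppy, 0.0169 and 0.277 for Tnip3, and 0 and 0.190 for Lpo. For Insl5 the median in stomach was 0. Such levels vary little on this scale, so the pooled spread may be too small for large bowel and the adjusted p-values too low.

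**Figure D1:**
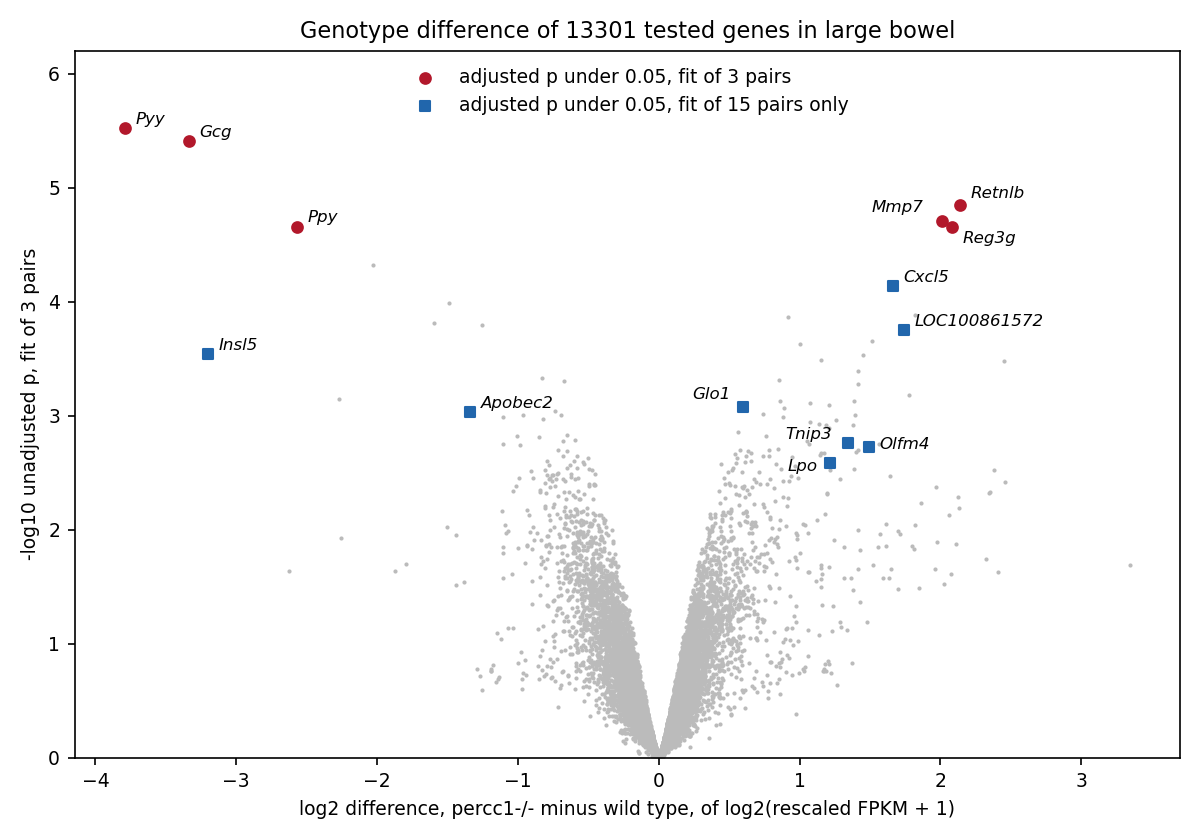
Each point is 1 of the 13301 tested genes, at its log2 difference of percc1-/- minus wild type (x axis, log2 of rescaled FPKM + 1) and the -log10 of its unadjusted p in the fit of the 3 large bowel pairs (y axis). Red circles passed in that fit, and blue squares passed only in the fit of 15 pairs; Pyy, Gcg, Ppy and Insl5 lie far to the left, apart from most other genes.

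Pyy, an appetite-restraining hormone of L cells, fell in all 3 pairs. In wild-type tissue Pyy was listed at 17.7 FPKM in colon at P5, 27.0 in rectum at P5 and 16.2 in colon with rectum at P1, and in percc1-/- tissue at 0.327, 0.554 and 0.782 FPKM. Every percc1-/- value was below every wild-type value, as for 5.36 percent of all genes, and between 1.84 and 4.82 percent of the wild-type level was left in the pair. The log2 difference was -3.79 ± 0.18 (SE, 3 pairs; limma adjusted p = 0.0259). Without the colon P5 pair it was -3.76. In the fit of 15 pairs Pyy did not pass (-3.83 ± 0.76, adjusted p = 0.0717).

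Gcg, the proglucagon gene, fell to a similar degree. Wild-type levels were 11.9 FPKM in colon, 10.1 in rectum and 10.7 at P1, against 0.0747, 0.0632 and 0.510 FPKM in percc1-/- tissue. Both P5 pairs thus kept 0.629 percent of the wild-type level and the P1 pair 4.75 percent, and the genotypes did not overlap. In the fit of 3 pairs the log2 difference was -3.34 ± 0.17 (SE; limma adjusted p = 0.0259), and in that of 15 pairs -3.38 ± 0.42 (adjusted p = 0.0024). Without the colon P5 pair the fit of 15 pairs still called it (-3.24, adjusted p = 0.0358).

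Ppy, whose peptide belongs to the same family as that of Pyy, was listed at 0 in all 3 percc1-/- libraries. Wild-type tissue held 4.48 FPKM in colon, 6.74 in rectum and 3.71 at P1. A listed 0 is not absence, and no fold can be given against it; the fitted log2 difference, which depends on the 1 FPKM added before taking logs, was -2.57 ± 0.18 (SE; limma adjusted p = 0.0489) in 3 pairs and -2.62 ± 0.19 (adjusted p = 3.1e-06) in 15 pairs. Leaving out the colon P5 pair, the fit of 15 pairs gave -2.66 (adjusted p = 7.0e-05). Ppy and Pyy are neighbours: in the mm9 positions of the deposited tables they lie 5376 bases apart on chromosome 11, Ppy at chr11:101961245-101962614 and Pyy at chr11:101967991-101969090.

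The promoters of the 3 fallen hormone genes are shown because these genes had the same direction in every pair. They are RefSeq windows of 300 bases around the transcription start on GRCm38.p6, read 5′ to 3′ on the minus strand: Pyy at chr11:102107783-102108082, the first of its 2 entries, Gcg at chr2:62483604-62483903 and Ppy at chr11:102101270-102101569. Capitals mark CANNTG, the E-box bound by basic helix-loop-helix factors such as Neurod1, and TATAAA, the TATA box, each searched on both strands; no match of the one overlaps a match of the other.
Pyy: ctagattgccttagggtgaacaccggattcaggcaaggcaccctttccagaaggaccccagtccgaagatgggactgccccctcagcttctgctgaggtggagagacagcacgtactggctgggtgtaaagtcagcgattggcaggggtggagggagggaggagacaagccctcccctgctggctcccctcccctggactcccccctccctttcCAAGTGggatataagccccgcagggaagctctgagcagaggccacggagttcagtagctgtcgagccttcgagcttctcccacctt
Gcg: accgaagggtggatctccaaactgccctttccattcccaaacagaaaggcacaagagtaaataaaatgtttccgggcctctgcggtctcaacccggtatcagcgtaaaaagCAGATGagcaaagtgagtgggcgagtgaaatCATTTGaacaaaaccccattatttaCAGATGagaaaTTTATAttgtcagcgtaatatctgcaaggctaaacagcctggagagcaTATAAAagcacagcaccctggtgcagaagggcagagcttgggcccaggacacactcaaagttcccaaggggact
Ppy: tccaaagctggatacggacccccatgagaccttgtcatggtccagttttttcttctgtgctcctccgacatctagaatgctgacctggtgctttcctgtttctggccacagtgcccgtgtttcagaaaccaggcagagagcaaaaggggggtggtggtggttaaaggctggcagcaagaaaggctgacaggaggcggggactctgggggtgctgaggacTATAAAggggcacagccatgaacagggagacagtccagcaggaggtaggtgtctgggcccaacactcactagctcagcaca
Pyy holds 1 E-box and 0 TATAAA, Gcg 3 and 2, and Ppy 0 and 1. Of all 32851 promoters of the same length in the table, 72.3 percent hold CANNTG and 13.6 percent TATAAA. A match is a run of letters and not a shown binding site.

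Insl5, the hormone most restricted to the distal large bowel, had wild-type levels of 6.84 FPKM in colon, 20.1 in rectum and 5.91 at P1. In percc1-/- tissue it was listed at 0.416, 0 and 0.0812 FPKM, below every wild-type value. Its log2 difference of -3.20 ± 0.38 (SE) missed the threshold in 3 pairs (limma adjusted p = 0.218). The wild-type rectum held the highest level. In the fit of 15 pairs Insl5 fell by 3.25 ± 0.38 (adjusted p = 0.00145), and it was called there without the colon P5 pair as well (adjusted p = 0.00284).

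Sst, the inhibitory hormone somatostatin, was listed at 5.30, 3.92 and 4.21 FPKM in wild-type colon, rectum and P1 tissue and at 0.884, 0.115 and 0.186 FPKM in percc1-/-. The genotypes did not overlap, with -2.03 ± 0.17 (SE) on the log2 scale, outside the threshold in both fits (limma adjusted p = 0.0907 and 0.0717). Leaving out the colon P5 pair gave -2.17 in the fit of 3 pairs (adjusted p = 0.600). Neurotensin (Nts), a peptide of the distal intestine, stood at 11.6 FPKM in wild-type colon and 10.4 at P1, but at only 0.484 in wild-type rectum. Its percc1-/- values were 0.276, 0.519 and 0.117 FPKM in colon, P1 tissue and rectum. Nts did not pass with all pairs (-2.26 ± 0.60 SE, limma adjusted p = 0.415 in 3 pairs, 0.0766 in 15). Leaving out the rectum pair, it passed in both fits (-3.16, adjusted p = 0.0179, and -3.23, adjusted p = 0.0020), and leaving out the colon P5 pair it did not (-1.71, adjusted p = 0.701, and -1.74, adjusted p = 0.446).

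The hormones usually found higher in the gut had smaller values or smaller differences. Secretin (Sct), which drives bicarbonate secretion, was listed at 12.4 FPKM against 14.48 in wild-type colon, 1.22 against 3.25 in rectum and 7.77 against 13.2 at P1, lower in 3 of 3 pairs (-0.65 ± 0.17 SE, limma adjusted p = 0.413). Cholecystokinin (Cck), which empties the gallbladder, was at 1.23 against 2.81, 0.101 against 0.555 and 2.68 against 2.74 FPKM, so that the P1 pair was nearly level (-0.47 ± 0.20 SE, adjusted p = 0.518). Ghrelin (Ghrl) was listed at 0 in all percc1-/- libraries and in wild-type colon, and at 2.79 and 4.196 FPKM in wild-type rectum and P1 tissue. Its direction is not settled: records without a symbol that overlap Ghrl held 2.24 to 10.1 FPKM, and with them added the log2 difference turned from -1.44 to 0.12.

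Tachykinin 1 (Tac1), the substance P precursor of enterochromaffin cells and enteric neurons, was the 1 tested hormone gene with positive values, 9.71 against 7.09, 5.74 against 4.30 and 15.9 against 7.21 FPKM (0.55 ± 0.15 SE, adjusted p = 0.418). Over the whole hormone list, 13 of 14 genes were in the tables and 10 were tested. Of these, 3 were called lower and 0 higher, beside 0.0226 percent of all genes each way. In 3 of 3 pairs 8 lay lower, against 16.7 percent of all genes. The median log2 difference of the list was -2.14, with -2.14 in colon, -1.97 in rectum and -2.39 at P1, beside -0.0010 over all genes. Without the colon P5 pair it was -2.16.

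**Figure D2:**
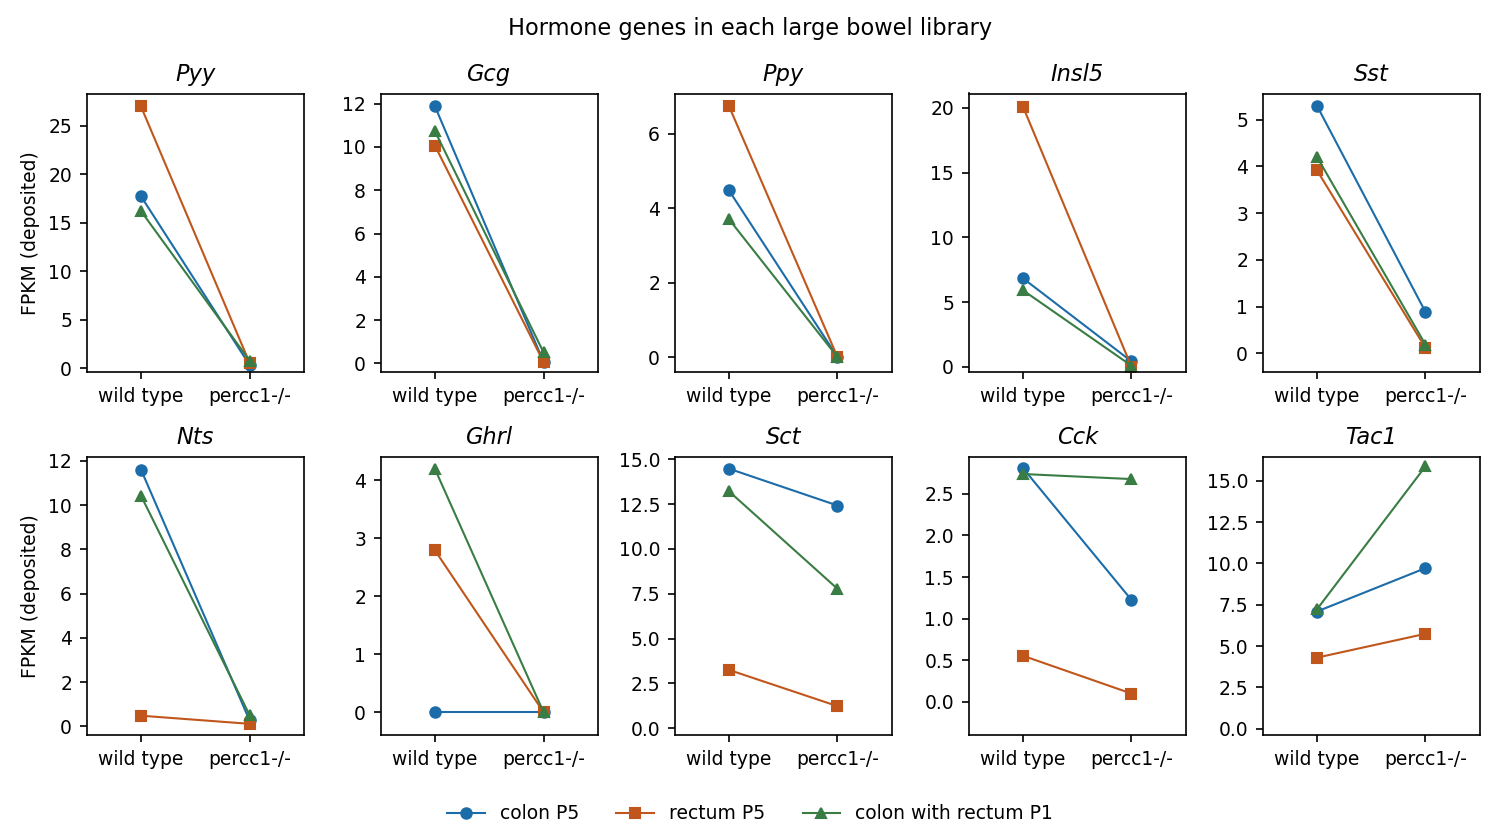
Deposited FPKM (y axis, with its own scale that includes 0 in each panel) of 10 hormone genes in wild-type and percc1-/- tissue; each line joins the libraries of 1 pair, colon P5 (circle), rectum P5 (square) or colon with rectum P1 (triangle). Pyy, Gcg, Ppy, Insl5 and Sst drop to near 0 in every pair, whereas Sct and Cck differ less and Tac1 lies higher in percc1-/- tissue.

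The depth behind these values can only be approximated, since the files hold no counts. Read from the width of the deposited bounds, a large bowel library held about 6331358 to 11710679 fragments. The estimate is rough and fails for some genes. Of 27363 named records with under 20 implied fragments, 47.4 percent lay within 0.05 of a whole number. Wild-type Duox2 gave about 2 fragments at 2.60 FPKM in colon but 98 at 1.02 FPKM at P1. On this estimate the wild-type values rest on about 161, 206 and 156 fragments for Pyy in colon, rectum and P1 tissue, and the percc1-/- values on about 4, 4 and 7. For Gcg the same estimate gives about 241, 170 and 230 fragments in wild type and 2, 1 and 10 in percc1-/- tissue. Differences among the percc1-/- libraries therefore rest on a handful of fragments.

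Granule and peptide-processing genes are shared by the endocrine cell types. Of 19 tested, 0 were called in either direction by limma, and their median was -0.04 (-0.17 without the colon P5 pair). At an unadjusted p of 0.05, 4 were higher and 2 lower, beside 4.78 and 5.14 percent of all genes. Chromogranin B (Chgb), a granule protein, was at 16.9 against 11.9 FPKM in colon, 12.7 against 8.78 in rectum and 17.4 against 8.61 at P1 (0.59 ± 0.11 SE, adjusted p = 0.353 in 3 pairs and 0.0717 in 15). Ptprn, a granule membrane protein, was at 5.10 against 2.71, 4.92 against 2.11 and 4.75 against 2.26 FPKM, all 3 percc1-/- values above the wild type (0.78 ± 0.14 SE, adjusted p = 0.353). Rph3al, which takes part in granule release, was at 8.16 against 11.2, 5.18 against 6.84 and 3.91 against 5.25 FPKM (-0.41 ± 0.12 SE, adjusted p = 0.441). Summed over the list, percc1-/- libraries held 111 to 133 FPKM and wild-type ones 113 to 123. Enteric neurons also use many of these genes; neuron markers had a median of 0.06 (-0.01 without the colon P5 pair), and their part in these values was not tested.

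Enterochromaffin genes were 8 tested and 0 called (1 higher at an unadjusted p of 0.05, beside 4.78 percent of all genes). Their median was 0.22 (0.16 without the colon P5 pair). Tph1, the rate-limiting enzyme of serotonin synthesis in the gut, was at 7.77 against 4.14 FPKM in colon, 2.69 against 0.916 in rectum and 9.48 against 1.65 at P1. It was higher in 3 of 3 pairs by 1.19 ± 0.25 (SE) on the log2 scale and did not pass (limma adjusted p = 0.364 in 3 pairs, 0.0853 in 15). The serotonin transporter Slc6a4 was at 3.81 against 1.60, 2.81 against 1.88 and 3.15 against 2.71 FPKM (adjusted p = 0.534). Tph1 and the L cell hormones thus had opposite signs in the same libraries.

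Among the transcription factors of the endocrine lineage 9 of 21 reached the filter, 0 were called, and the median was -0.08 (-0.17 without the colon P5 pair). At an unadjusted p of 0.05, 1 was higher and 1 lower, beside 4.78 and 5.14 percent of all genes. The foregut and endocrine factor Foxa2 was at 3.35 against 1.71, 6.13 against 3.43 and 1.86 against 0.929 FPKM in colon, rectum and P1 tissue (0.62 ± 0.15 SE, limma adjusted p = 0.407). Etv1 was at 7.96 against 11.8, 6.58 against 11.4 and 7.92 against 8.16 FPKM (-0.46 ± 0.14 SE, adjusted p = 0.451), and is also a marker of interstitial cells of Cajal. Of the receptors by which L cells sense nutrients and bile acids 4 of 14 were tested and 0 called. At an unadjusted p of 0.05, 1 was higher, beside 4.78 percent of all genes. Gpr35 was at 4.78 against 3.73, 5.23 against 4.18 and 2.99 against 2.59 FPKM (adjusted p = 0.668). The other sensing and lineage genes, most of both lists, did not reach the 1 FPKM filter and were not tested.

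The 3 genes that rose in the fit of 3 pairs are described first. Retnlb, a goblet cell resistin-like protein, was listed at 15.6 FPKM against 3.29 in wild-type colon, 11.6 against 1.64 in rectum and 8.15 against 0.852 at P1. All percc1-/- values lay above all wild-type values, as for 4.97 percent of all genes, and were 4.73 to 9.57 times the wild-type level in the pair, and the log2 difference was 2.14 ± 0.14 (SE; limma adjusted p = 0.0489). Mmp7, the matrilysin protease that activates defensins in the mouse, was at 11.3 against 1.72, 4.32 against 0.361 and 11.9 against 2.16 FPKM (2.01 ± 0.14 SE, adjusted p = 0.0489), again without overlap. Reg3g, a secreted lectin that kills Gram-positive bacteria, was at 37.4 against 9.89, 7.76 against 0.656 and 24.7 against 4.66 FPKM (2.08 ± 0.15 SE, adjusted p = 0.0489).

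The percc1-/- rectum thus held less Reg3g than the wild-type colon, and the genotypes overlapped. The wild-type rectum value of Reg3g has very wide deposited bounds. Without the colon P5 pair the log2 differences were 2.25 for Retnlb, 1.94 for Mmp7 and 2.23 for Reg3g, and in the fit of 15 pairs, which called none of the 3, the adjusted p-values were 0.296, 0.101 and 0.378. Of the 12 tested genes of the Reg and epithelial antibacterial list 2 were called higher and 0 lower, beside 0.0226 percent of all genes each way. The median was 0.45 (0.36 without the colon P5 pair). At an unadjusted limma p of 0.05, 5 were higher and 1 lower, beside 4.78 and 5.14 percent of all genes. The near relative Reg3b was at 57.1 against 26.8, 16.4 against 2.01 and 42.9 against 23.8 FPKM (adjusted p = 0.411). Reads of Reg3b and Reg3g, which resemble each other, may have been divided between them.

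The fit of 15 pairs called 6 genes higher in large bowel. Olfm4, a secreted glycoprotein of intestinal stem and progenitor cells, was at 11.3 against 1.68 FPKM in colon, 2.40 against 0.697 in rectum and 8.57 against 2.63 at P1 (1.498 ± 0.25 SE, limma adjusted p = 0.0373). It was not called without the colon P5 pair (1.14, adjusted p = 0.296) or without the P1 pair (0.122). Cxcl5, a chemokine that draws neutrophils, was at 4.06 against 0.535, 3.997 against 0.685 and 4.34 against 0.567 FPKM, close to each other in the 3 pairs (1.68 ± 0.30 SE, adjusted p = 0.0461). Its adjusted p was 0.232 without the colon P5 or the P1 pair and 0.0950 without the rectum pair.

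Tnip3, an inhibitor of NF-kB signalling, was at 4.13 against 0.507, 14.52 against 8.33 and 4.43 against 0.826 FPKM (1.35 ± 0.17 SE, limma adjusted p = 0.0024). Its wild-type colon value has very wide deposited bounds, with about 0.2 implied fragments, against about 59 at P1. Lactoperoxidase (Lpo), an antibacterial enzyme, was at 0.752 against 0.0711, 2.71 against 0.304 and 3.34 against 0.540 FPKM (1.23 ± 0.20 SE, adjusted p = 0.0218). Both were called without the colon P5 pair as well, at an adjusted p of 0.0462 and 0.0218; without the rectum pair that of Lpo was 0.0950. The unannotated LOC100861572 was listed at 0 in the wild-type libraries and at 2.87, 1.94 and 2.35 FPKM in percc1-/- tissue (adjusted p = 0.0461), values that rest on about 5, 2 and 3 fragments by the estimate above. Left without the colon P5, P1 or rectum pair, its adjusted p was 0.263, 0.232 or 0.0797.

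The remaining call upward and the remaining call downward lie on chromosome 17, which carries the deletion. Glo1, glyoxalase 1, was at 20.1 against 13.6, 28.0 against 18.1 and 24.1 against 13.6 FPKM (0.59 ± 0.08 SE, limma adjusted p = 0.0045). Apobec2, a muscle member of the cytidine deaminase family, was at 0.836 against 2.79, 1.64 against 8.39 and 0.502 against 2.15 FPKM (-1.36 ± 0.20 SE, adjusted p = 0.0100). Neither gene overlapped between genotypes, and both were called without the colon P5 pair (adjusted p = 0.0358 for each). Without the P1 pair the adjusted p was 0.0687 for Glo1 and 0.0505 for Apobec2, and without the rectum pair 0.0724 for Apobec2. Of 643 tested genes of chromosome 17, 10.4 percent had an unadjusted p under 0.05, beside 9.92 percent of all genes.

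Acute phase and neutrophil genes made up the list with the largest positive median, 1.61 over 23 tested genes. In 3 pairs 0 were called by limma, while 18 were higher and 0 lower at an unadjusted p of 0.05, beside 4.78 percent of all genes higher. Of the 23, 19 were higher in 3 of 3 pairs, beside 17.1 percent. The size differed by pair: the median log2 ratio was 1.74 in colon at P5, 2.06 in colon with rectum at P1 and 0.57 in rectum at P5. In 19 of the 23 genes the rectum had the smallest of the 3 ratios. The share of all genes with the rectum smallest was not computed. Over all genes the median log2 ratio was 0.0075 in colon, -0.012 at P1 and 0.0087 in rectum. Stfa2, a stefin of neutrophils, was at 12.6 against 0.0615 FPKM in colon, 15.8 against 1.52 at P1 and 1.55 against 0.225 in rectum (2.46 ± 0.50 SE, adjusted p = 0.353), and may share reads with its close copies. Duox2, the epithelial oxidase that makes hydrogen peroxide, was at 9.52 against 2.60, 4.04 against 1.02 and 10.4 against 5.37 FPKM (1.21 ± 0.17 SE, adjusted p = 0.328).

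Other neutrophil and inflammatory genes, named here after their values were seen, showed how far the rectum differed. S100a8, a subunit of the neutrophil protein calprotectin, was at 20.5 against 1.73 FPKM in colon, 25.9 against 2.90 at P1 and 4.40 against 2.75 in rectum. Lcn2, an iron-binding antibacterial protein, was at 10.3 against 0.183, 19.0 against 1.39 and 1.29 against 0.298 FPKM in the same order. Il1b, the interleukin-1 beta gene, was at 13.3 against 0.471, 6.57 against 0.298 and 0.624 against 0.526 FPKM. Without the colon P5 pair the median of the list was 1.30, from 1 P1 and 1 P5 pair. General leukocyte markers had a median of -0.11 over 10 tested genes (-0.33 without the colon P5 pair). Of these, 1 was higher and 3 were lower in 3 of 3 pairs, beside 17.1 and 16.7 percent of all genes. Ptprc, found on all leukocytes, was at 5.68 against 4.02, 6.67 against 4.86 and 8.501 against 8.14 FPKM (limma adjusted p = 0.587). Cd79b had the opposite sign, at 0.680 against 0.782, 0.232 against 0.949 and 0.979 against 2.86 FPKM (adjusted p = 0.500).

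**Figure D3:**
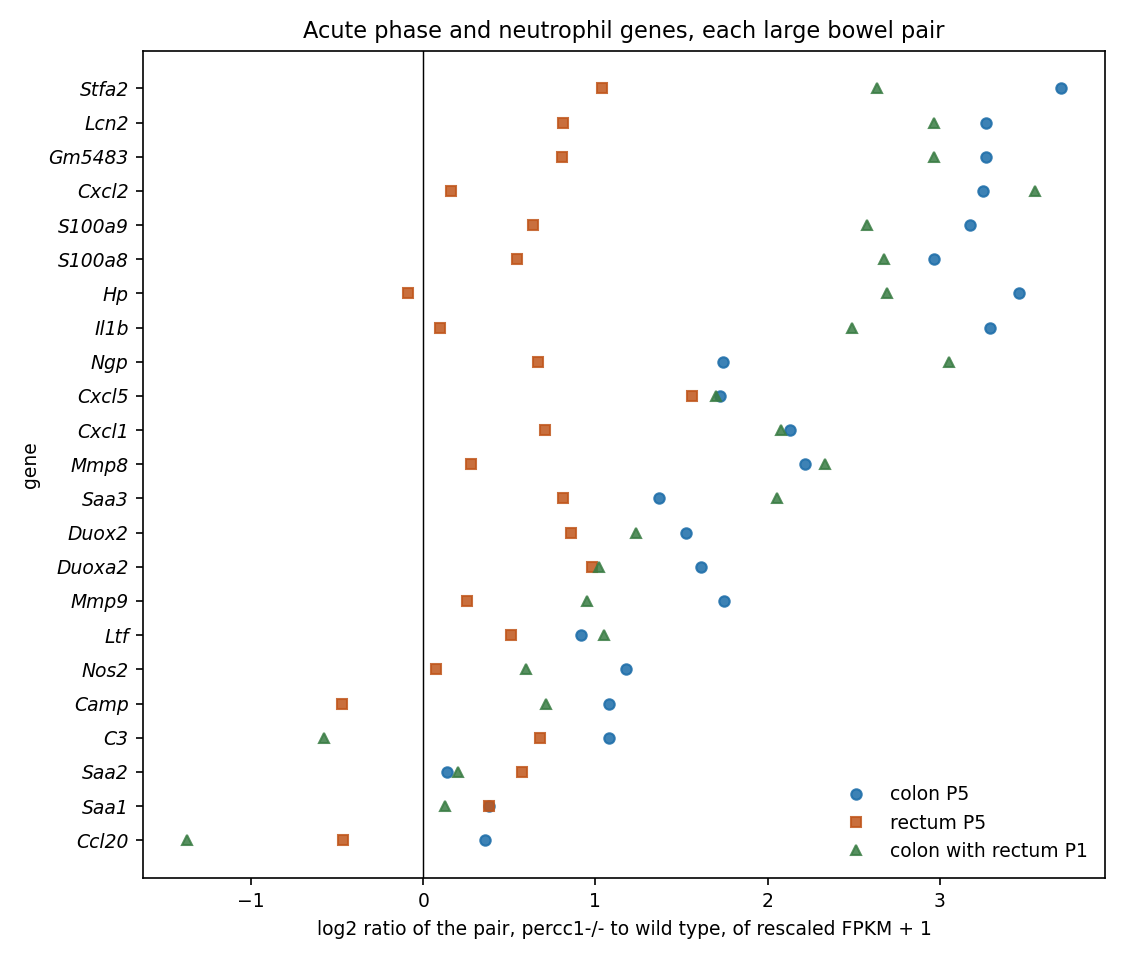
Log2 ratio of percc1-/- to wild type (x axis, rescaled FPKM + 1) of the 23 tested acute phase and neutrophil genes in each large bowel pair; each marker is 1 pair and the vertical line marks equal levels. The colon P5 and P1 pairs lie mostly above 1, with medians of 1.74 and 2.06, while the rectum squares lie nearer to 0, with a median of 0.57.

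Genes induced by glucocorticoids and fasting had 20 tested members, 0 of them called by limma, and a median of 0.26. At an unadjusted p of 0.05, 7 were higher and 1 lower, beside 4.78 and 5.14 percent of all genes. Zbtb16, a transcription factor induced by cortisol and corticosterone, was at 6.51 against 1.496 FPKM in colon, 4.03 against 0.551 in rectum and 8.70 against 0.986 at P1 (1.82 ± 0.18 SE, adjusted p = 0.164; 1.95 without the colon P5 pair). Fkbp5, a chaperone of the glucocorticoid receptor, was at 15.4 against 6.35, 17.8 against 4.13 and 18.7 against 6.19 FPKM (1.45 ± 0.17 SE, adjusted p = 0.218). It lies on chromosome 17 (chr17:28534702-28623057 on mm9), nearer the stated deletion than Glo1 or Apobec2. Whether that position bears on its difference was not tested. Sgk1, a hormone-induced kinase that raises sodium uptake, was at 31.0 against 15.3, 36.6 against 20.8 and 39.0 against 14.46 FPKM (0.999 ± 0.11 SE, adjusted p = 0.197). These 3 genes, named for the smallest p-values of the list, did not overlap between genotypes. Of the 20 tested, 7 were higher without overlap, beside 4.97 percent of all genes. The log2 ratios of Zbtb16, Fkbp5 and Sgk1 in rectum were 1.68, 1.89 and 0.81. The median of the whole list was 0.31 in colon, 0.29 at P1 and 0.14 in rectum. It was 0.40 without the colon P5 pair.

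Circadian clock genes went both ways, with 16 tested, 0 called and a median of -0.04. At an unadjusted p of 0.05, 2 were higher and 2 lower, beside 4.78 and 5.14 percent of all genes. Per3 was at 2.75 against 8.17, 2.66 against 11.3 and 2.14 against 6.78 FPKM in colon, rectum and P1 tissue (-1.49 ± 0.14 SE, limma adjusted p = 0.152 in 3 pairs, 0.0591 in 15; -1.57 without the colon P5 pair in the fit of 3 pairs). Per1, also induced by glucocorticoids, was at 14.3 against 7.62, 10.04 against 4.65 and 15.8 against 4.75 FPKM (1.07 ± 0.15 SE, adjusted p = 0.328). The labels give no hour of dissection.

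Salt and water transport, the main task of the colonocyte, had 26 tested genes with 0 called (9 higher and 1 lower at an unadjusted p of 0.05, beside 4.78 and 5.14 percent of all genes), a median of 0.23 (0.16 without the colon P5 pair), and 11 genes higher in 3 of 3 pairs, beside 17.1 percent. Scnn1b, the beta subunit of the epithelial sodium channel, was at 5.19 against 1.43 FPKM in colon, 13.8 against 8.05 in rectum and 4.202 against 2.26 at P1 (0.88 ± 0.19 SE, limma adjusted p = 0.373). The sulphate transporter Slc26a2 was at 15.1 against 11.7, 30.9 against 19.9 and 15.6 against 10.1 FPKM (0.47 ± 0.10 SE, adjusted p = 0.375). The water channel Aqp8 had the opposite sign, at 22.5 against 30.2, 35.4 against 42.3 and 10.5 against 22.5 FPKM (-0.61 ± 0.20 SE, adjusted p = 0.461).

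Goblet cell genes were 19 tested, 1 called higher (Retnlb, described above) and 0 lower, beside 0.0226 percent of all genes each way. Their median was 0.28 (0.23 without the colon P5 pair). At an unadjusted p of 0.05, 7 were higher and 0 lower, beside 4.78 and 5.14 percent of all genes. Zg16, a mucus lectin, was at 27.0 against 17.6 FPKM in colon, 50.01 against 35.3 in rectum and 26.5 against 14.4 at P1 (0.59 ± 0.09 SE, limma adjusted p = 0.328). Crypt stem and progenitor genes had a median of -0.09 over 17 tested genes (-0.18 without the colon P5 pair), with 0 called in 3 pairs. Of these, 2 were higher and 1 lower at an unadjusted p of 0.05, beside the same shares of all genes. Proliferation genes had a median of -0.03 over 23 (0.02 without the colon P5 pair), with 0 called and 0 at an unadjusted p of 0.05. Olfm4 was the 1 gene of the crypt list called in the fit of 15 pairs, which called 0.0465 percent of all genes higher.

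Interferon-stimulated genes had 19 tested members, 0 called, with a median of -0.36 and 10 lower in 3 of 3 pairs, beside 16.7 percent of all genes. At an unadjusted p of 0.05, 0 were higher and 5 lower, beside 4.78 and 5.14 percent of all genes. Leaving out the colon P5 pair gave a median of -0.53, with 18 of 19 lower in both remaining pairs, beside 28.0 percent of all genes. Trim30d was at 0.125 against 2.48 FPKM in colon, 0.239 against 2.56 in rectum and 0.222 against 2.58 at P1 (-1.59 ± 0.17 SE, limma adjusted p = 0.164). Trim12a was at 0, 0.566 and 0.553 FPKM against 7.65, 3.99 and 4.84 (-2.27 ± 0.32 SE, adjusted p = 0.328). Both belong to a cluster of similar genes whose reads may be shared. Ifi44, outside that cluster, was at 0.482 against 1.09, 0.264 against 0.873 and 0.622 against 2.999 FPKM (-0.82 ± 0.24 SE, adjusted p = 0.451).

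Mast cell genes had a median of -0.55 over 7 tested genes (-0.60 without the colon P5 pair), with 0 called. At an unadjusted p of 0.05, 1 was higher and 5 lower, beside 4.78 and 5.14 percent of all genes. The protease Mcpt2 was at 0.629 against 2.36, 0.426 against 1.37 and 0.344 against 1.17 FPKM (-0.85 ± 0.18 SE, limma adjusted p = 0.364). The 6 tested MHC class II genes had negative log2 differences, beside 50.2 percent of all genes, with a median of -0.29 (-0.42 without the colon P5 pair). Of them, 3 were lower in 3 of 3 pairs and 0 passed an unadjusted p of 0.05 by limma. The class II gene H2-Ab1 was at 8.03 against 8.90, 10.9 against 13.4 and 3.22 against 6.67 FPKM (adjusted p = 0.521). For the wall, medians were -0.10 for smooth muscle (15 tested), 0.06 for enteric neurons (19), -0.14 for enteric glia (7), -0.18 for interstitial cells of Cajal (7), -0.07 for fibroblasts and matrix (14) and 0.01 for endothelium (11), with 0 called by limma in each. The neuropeptide galanin (Gal) was at 4.14 against 1.79, 4.05 against 1.91 and 6.60 against 3.39 FPKM (0.78 ± 0.14 SE, limma adjusted p = 0.353). It was higher without overlap, as were 1 of the 19 enteric neuron genes and 4.97 percent of all genes. Small intestine enterocyte genes had a median of -0.07 over 18 tested genes, 0.20 in colon, -0.51 in rectum and 0.04 at P1. Without the colon P5 pair it was -0.31.

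**Figure D4:**
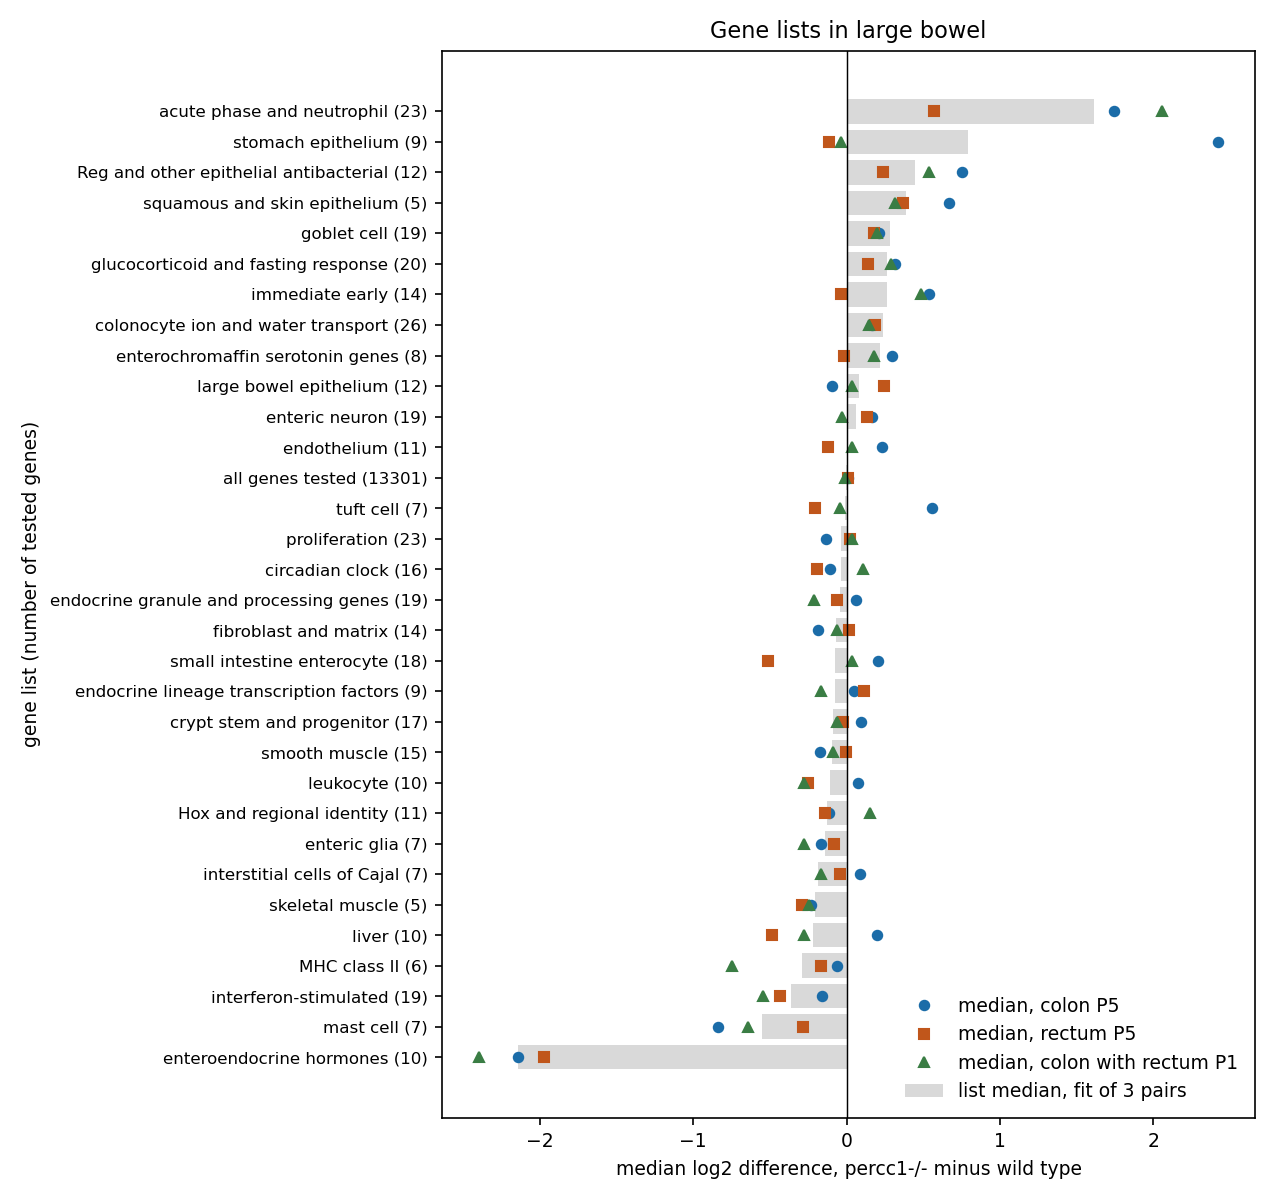
Median log2 difference of percc1-/- minus wild type (x axis) of each gene list with at least 5 tested genes, with the number tested in brackets; grey bars are medians in the fit of 3 pairs and markers are medians within each pair. The hormone list lies at -2.14 with its 3 pairs close together, and the acute phase list at 1.61 with the rectum apart. The stomach list lies at 2.42 in the colon P5 pair and near 0 in the others, but its genes could pass the filter through that pair alone.

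Beyond the calls, 10 genes lay more than 1 log2 unit lower in 3 of 3 pairs (0.0752 percent) and 15 more than 1 log2 unit higher (0.113 percent). Afm, a vitamin E-binding plasma protein, was at 3.73 against 10.9 FPKM in colon, 1.33 against 4.47 in rectum and 2.78 against 7.10 at P1 (-1.26 ± 0.13 SE, limma adjusted p = 0.164). Ly6d, a surface protein of squamous epithelium, was at 8.96 against 0.678, 25.7 against 7.71 and 21.4 against 1.36 FPKM (2.45 ± 0.30 SE, adjusted p = 0.221). Retnlg, a neutrophil resistin-like protein, was at 11.1 against a listed 0, 1.36 against 0 and 7.96 against 0.731 FPKM (adjusted p = 0.353). Defa17, a defensin that may share reads with its many copies, was at 5.14 against 0.734, 2.48 against 0.282 and 8.64 against 2.63 FPKM (1.51 ± 0.17 SE, adjusted p = 0.196).

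The genotype effect was then compared between the 3 large bowel pairs, at P1 and P5, and the 7 small intestine and 5 stomach pairs, at P1 to P20. Of 12902 genes 1 differed between large bowel and small intestine (0.00775 percent) and 4 between large bowel and stomach (0.031 percent), 2 of them higher and 2 lower in large bowel (0.0155 percent each). The 4 became 15 with P1 and P5 pairs alone, with 1 gene (Ppy) shared, and 0 without the pair block or with a pseudocount of 0.1. Ppy fell more in large bowel than in either: the log2 differences were -2.62, -0.47 and -0.61, and the contrasts -2.14 ± 0.22 (SE, limma adjusted p = 0.00067) and -2.004 ± 0.24 (adjusted p = 0.0036). Without the colon P5 pair they were -2.18 (adjusted p = 0.0045) and -2.04 (adjusted p = 0.0141). Wild-type Ppy had a median of 4.48 FPKM in large bowel, 0.305 in small intestine and 0.5805 in stomach, and a fall cannot exceed the level. The same holds for Insl5, which differed from stomach by -3.22 (adjusted p = 0.031), where wild-type levels had a median of 0, and by -3.58 without the colon P5 pair (adjusted p = 0.0225), but was not called with P1 and P5 pairs alone (adjusted p = 0.239); against small intestine the contrast was -2.72 (adjusted p = 0.114).

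Tnip3 differed by 1.35 in large bowel and -0.04 in stomach (contrast 1.40, limma adjusted p = 0.0326), where its wild-type median was 0.277 FPKM against 0.826 in large bowel. Ceacam10, a member of the carcinoembryonic antigen family, was at 3.58 against 1.53 FPKM in colon, 2.48 against 1.05 in rectum and 2.21 against 1.34 at P1, higher in 3 of 3 pairs, whereas in stomach it was lower in 5 of 5 (0.66 and -1.22; contrast 1.88, adjusted p = 0.0326). Neither Tnip3 nor Ceacam10 was called against stomach without the colon P5 pair (1.17 and 1.79, adjusted p = 0.225 for each) or with P1 and P5 pairs alone (adjusted p = 0.254 and 0.210). Gcg, Sst and Tph1 gave no called contrast, with effects of -3.38, -2.06 and 1.20 in large bowel, -2.94, -2.22 and 1.10 in small intestine, and -2.09, -1.49 and 1.57 in stomach. Cck was -0.48 in large bowel and -2.52 in small intestine, where its wild-type median was 9.41 FPKM against 2.74, and that contrast did not pass (adjusted p = 0.421).

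**Figure D5:**
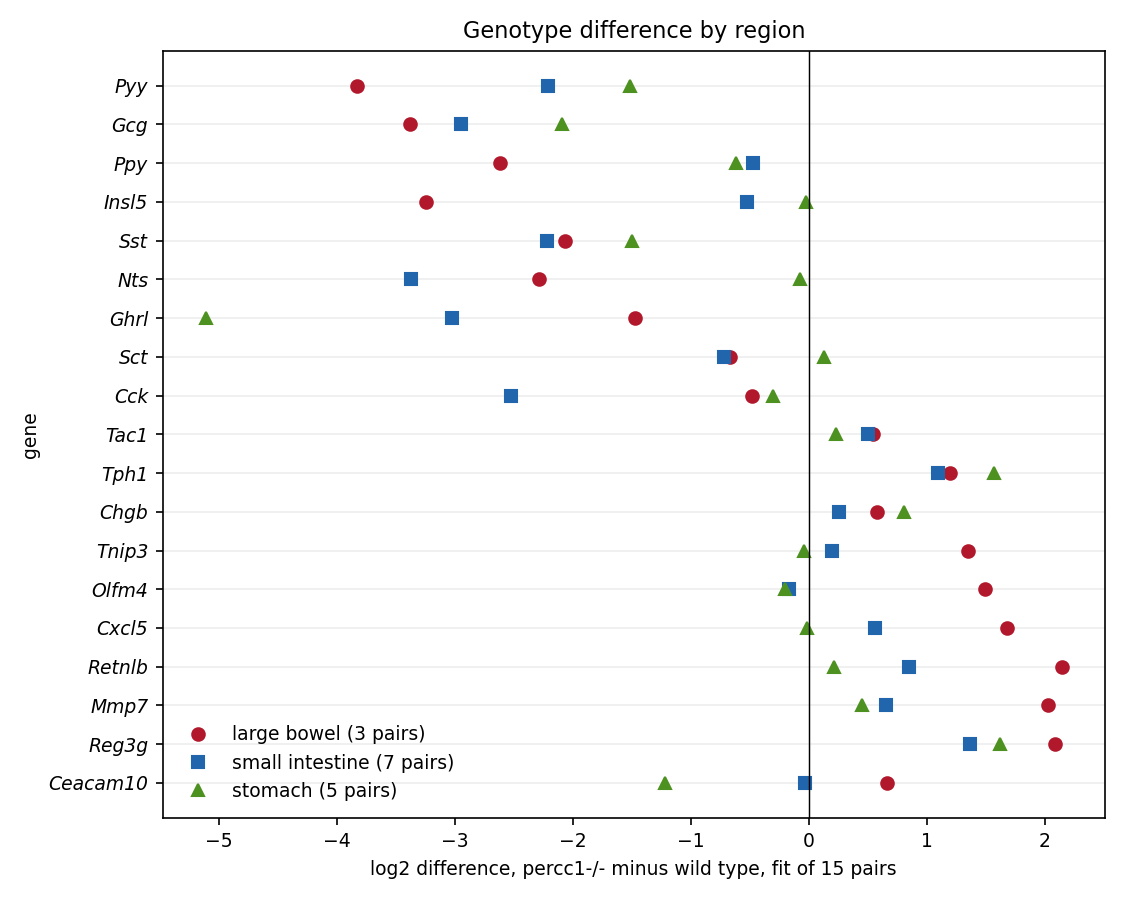
Log2 difference of percc1-/- minus wild type (x axis) in large bowel, small intestine and stomach, from the fit of 15 pairs, for 19 genes (y axis). Ppy and Insl5 lie far lower in large bowel, Tnip3 and Ceacam10 higher than in stomach, and Gcg, Sst and Tph1 have the same sign in the 3 regions.

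The targeted gene could not be used to check the genotype labels. No record of the 6 libraries carries the symbol Percc1. The stated deletion, chr17:25175032-25176543 on mm9, falls within Ift140 (chr17:25153031-25236442 in the tables), whose level was 5.49 against 5.55, 4.47 against 5.50 and 4.65 against 5.79 FPKM (-0.22 ± 0.14 SE, limma adjusted p = 0.643). On GRCm38, RefSeq places Percc1 at chr17:25171154-25180818, an interval that would hold the stated numbers, so it is not clear which build they refer to. Records without a symbol lay wholly inside the stated positions in 1 library, the percc1-/- colon at P5 (2 records, 3.49 FPKM in sum). Between Clcn7 and BC003965 (chr17:25299044-25321506 on mm9) 1 such record was listed, at 1.22 FPKM in wild-type colon at P5, and 0 in the other libraries.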

How the data were processed

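Gene tables of 6 large bowel libraries were used, with 24 further postnatal libraries in the second fit. The authors deposited 1 table of FPKM values with their bounds per library, and the submitters' processing notes name TopHat2 2.0.13, SAMtools 0.1.18, Cufflinks 2.2.1 and mm9; no source used here gives the annotation version. Records of one symbol were summed. Records with a failed status or several symbols left their genes missing, 1374 of 23236 symbols. Named records held 19.1 to 27.2 percent of the FPKM of a library.

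Each library was divided by a size factor, its median ratio to a geometric-mean reference (0.927 to 1.06). Genes averaging 1 FPKM or more in the 6 libraries were tested with limma 3.58.1 in R 4.3.3 on log2(rescaled FPKM + 1), two-sided, with a trended and robust prior and the pair as a block. This scale understates changes of low genes. The fit of 3 pairs leaves 2 residual degrees of freedom and that of 15 pairs 12; the latter assumes 1 spread for all regions. Pairs come from region and stage in the labels; deviations of paired libraries from their genotype means correlated at 0.283, 0.361 and 0.544. The tests were tested on simulated data.

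Genes named are the expressed hormones, the called genes, the largest differences past 1 log2 unit in 3 of 3 pairs, the leading members of each list, and the genes at the locus; not all are printed. The members and lists were chosen with earlier results of these data known. A listed 0 was not read as absence, since 8 of 4400 genes averaging 10 FPKM or more had a 0 in 1 or more libraries.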

Additional observations from a re-analysis of the deposited data

Results flagged for a closer look

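The genotype effect differed between regions by a test of the difference itself (limma, adjusted p under 0.05) for 5 contrasts. Ppy differed by -2.14 from small intestine and by -2.004 from stomach, and Insl5 by -3.22 from stomach, each lower in 3 of 3 large bowel pairs. Tnip3 differed by 1.40 and Ceacam10 by 1.88 from stomach, each higher in 3 of 3 large bowel pairs; these 2 were not called without the colon P5 pair (adjusted p = 0.225 for each). 2 named genes had one sign in every large bowel pair and the other in every stomach pair without passing the test. Only named genes were searched for this, and the share over all genes was not computed, so the 2 are no evidence of a region difference. Ift140 had a contrast of -0.72 (adjusted p = 0.577). It overlaps the stated deletion only if the positions are read on mm9, and the build is not clear. Osr2, a transcription factor of the Hox and regional list, had -0.62 (adjusted p = 0.997).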

How the results depend on the processing

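The 6 calls of 3 pairs became 0 with a pseudocount of 0.1 and 2 with 0.5, 0 with no filter and 1 with a filter at 5 FPKM, and 0 to 28 when each pair in turn was left out. The spread of 15 pairs gave 10, and averaging the P5 pairs, added after seeing the data, 12. Without the pair block the count was 4, 3 of them shared. The 10 calls of 15 pairs became 19 with no filter and 3 at 5 FPKM, 2 with P1 and P5 pairs alone, also added after seeing the data, 8 to 33 with each large bowel pair left out, and 11 without the pair block. The 1 contrast with small intestine became 2 with a pseudocount of 0.1 and 2 with P1 and P5 pairs alone, and stayed at 1 without the pair block. The 4 contrasts with stomach became 0 with a pseudocount of 0.1, 15 with P1 and P5 pairs alone and 0 without the pair block. Leaving out each large bowel pair, chosen after seeing the data, gave 3 to 8 contrasts with small intestine and 3 to 13 with stomach; Ppy was called in all of these. Genes past 1 log2 unit in 3 of 3 pairs, 15 higher and 10 lower, became 47 and 17 with a pseudocount of 0.1, and 71 and 35 past 0.58. Ghrl turned to 0.12 with unnamed records added, a setting chosen after seeing the data. Of 174 list medians recomputed, 148 moved by less than 1 SD of the pair medians. The causes were not tested. A fit of 2 pairs leaves 1 residual degree of freedom. Some but not all levels under about 1 FPKM, and those of LOC100861572, rest on few fragments. By the rough estimate some higher levels do so too, such as Duox2 at 2.60 FPKM in wild-type colon, with about 2.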
